A study of Caenorhabditis elegans with 6 samples.

Results

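The clec genes of Caenorhabditis elegans encode proteins with a C-type lectin-like domain, and they were taken here as every row of the deposited counts table whose WormBase identifier maps to a symbol starting with clec-. This gave 240 of the 46748 rows, with 237 distinct symbols, since clec-15, clec-209 and clec-249 are each carried by 2 identifiers. All 240 are protein coding in the Ensembl annotation of build WBcel235. RNA came from whole hermaphrodites of the wild-type strain N2 aged 2 days (in the title, days after L4, the last larval stage). There were 3 libraries from worms given L4440, the empty vector that serves as the control in RNA interference (RNAi) by feeding, and 3 from worms given RNAi against T25B9.1. The gene T25B9.1 corresponds to glycine C-acetyltransferase, an enzyme of threonine breakdown. The question was whether the lectin genes differed between worms with and without this knockdown.

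C-type lectins take their name from the calcium that the classic members need to bind sugars through this domain. The worm genome holds a large, rapidly evolving set of them, many predicted to be secreted, and single members are induced in the intestine and other tissues when worms meet bacteria or other pathogens. The domain does not always bind sugar, and for most worm members no ligand is known. The best studied act in or respond to infection. Examples are clec-60, which is induced by Staphylococcus aureus, clec-39 and clec-49, studied with Serratia marcescens, clec-41 and clec-42, studied with Bacillus thuringiensis, and clec-85, a target of the p38 MAP kinase PMK-1 in intestinal immunity.

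Depth was 26125982 to 40726259 counts per library, and T25B9.1 itself had 5.99, 4.99 and 6.39 CPM (counts per 1000000 counts, with library sizes scaled for composition) in the L4440 libraries and 1.35, 1.71 and 1.76 CPM in the RNAi libraries. Its log2 fold change was -1.84 (SE 0.184, adjusted p = 0.0525 in edgeR's quasi-likelihood test and 1.28e-11 in DESeq2). Whole worms hold every tissue, so intestine markers summed to 55480 to 85980 CPM and oocyte markers to 16430 to 17260 CPM over the 6 libraries. Of 32 sperm markers, 1 was at 0 and the list summed to 1.88 to 4.799 CPM. T25B9.1 RNAi replicate 1 stood apart in a principal component analysis: its score on component 1, which held 47.1% of the variance, was 41.9 against -27.5 to 4.59 for the others. For several members the fold change is given with and without it, as are the counts of members with a small p. Medians split by level are given with all 6 libraries only. In whole-worm RNA, fewer cells of a type and less RNA per cell cannot be told apart. Nothing in the labels ties replicates to separate cultures, and the p-values therefore reflect the spread between these libraries alone, which may be technical.

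A minority of the family was expressed at a level that could be compared. At least 1 count was present for 209 members over the 6 libraries together, and 128 had at least 1 count in every library. The filter on low counts left 88 members to test, of which 67 had a mean of at least 1 CPM, 32 of at least 10 CPM and 8 of at least 100 CPM. The lowest mean among the tested members was 0.298 CPM. The other 152 were not tested, and every member with a mean of at least 1 CPM was among the tested ones. Of the 152, 121 had at least 1 count, with a median total of 7 counts and a highest total of 80 counts over all 6 libraries. The remaining 31 had 0 counts throughout, which at this depth allows up to 0.0163 CPM (3 counts over all 6 libraries, counting error only). Both identifiers of clec-15, clec-209 and clec-249 were among these 31. How reads that match several genes were treated is not given in the sources used here, so a count of 0 in a duplicated gene can also be a matter of counting.

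Members lay on all 6 chromosomes, unevenly. Chromosome V held 86 of them, IV 53, II 48, I 36, III 14 and X 3. The share that could be tested was 52.8% on chromosome IV (28 of 53), 37.5% on II (18 of 48), 35.7% on III (5 of 14), 29.1% on V (25 of 86) and 25% on I (9 of 36), and all 3 members on X were tested. The 31 members without a count included 11 of the 86 on V and 10 of the 36 on I. At least 1 count was present for 41 of 48 on II, 50 of 53 on IV, 14 of 14 on III and 3 of 3 on X.

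**Figure D1:**
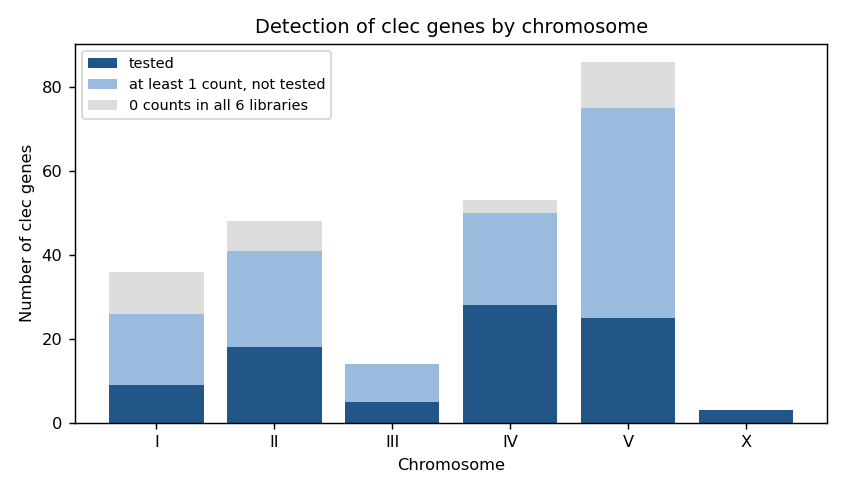
Number of clec genes on each chromosome (x axis: chromosome, y axis: number of genes), split into tested genes, genes with at least 1 count that were not tested, and genes with 0 counts in all 6 libraries. Chromosome IV has the most tested members, 28 of 53, and chromosome I has 9 of 36.

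Clec genes stand in runs along the chromosomes. With neighbours defined as members at most 10000 bases apart, 155 members fell into 47 runs and 85 stood alone. Being in a run made little difference to being expressed, with 36.1% of members in runs tested (56 of 155) against 37.6% of those standing alone (32 of 85). Within runs, levels of neighbours differed widely. The largest run, 13 members on chromosome V from 16839121 to 16869840 (clec-40 to clec-33), had 3 tested members and none above a mean of 1.56 CPM. The run of 5 on chromosome II from 12893062 to 12906644 held clec-63 at a mean of 460.8 CPM per kilobase of exon and its direct neighbour clec-64, with the same orientation, at 0.125 CPM per kilobase. A run of 7 elsewhere on the same chromosome, clec-127 to clec-134, had no tested member and no mean above 0.0356 CPM.

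Per kilobase of exon, a single gene was far above the rest. Levels of different genes are given as CPM per kilobase of exonic length, so that long genes do not count as abundant for their length alone. The gene clec-87 (WBGene00007709; chromosome I, 10184462 to 10185520, minus strand, 3 exons) was at 2473, 2260 and 2651 CPM per kilobase with L4440 and at 1942, 2241 and 2372 with RNAi. Its libraries overlapped between the groups, with RNAi replicate 1 the lowest. Of its 960 exonic bases 138 are shared with iars-2, an isoleucyl-tRNA synthetase gene on the other strand, whose own mean was 119 CPM. The kit does not mark strand, so reads from that stretch cannot be assigned to one gene, and the same holds for 17 tested members in all that share exonic bases with another protein-coding gene.

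Below clec-87 came 4 genes, each with a range over the 6 libraries that touched that of the next in order. The range of clec-88 did not reach those of clec-91 and clec-50. Next in order was clec-88 (chromosome II, 6365722 to 6367002) at 506.2 ± 49.3 CPM per kilobase (SD over 6 libraries, both groups together), then clec-63 (chromosome II, 12895638 to 12897446) at 460.8 ± 24.4. The next 2, clec-91 (chromosome I, 9126140 to 9127101) at 383.7 ± 39.1 and clec-50 (chromosome V, 19752399 to 19755368) at 376.0 ± 38.6, were not apart beyond their spread. They were followed by clec-1 at 198.8 ± 29.1, clec-150 at 118.4 ± 17.2, clec-65 at 93.5 ± 11.3 and clec-186 at 81.3 ± 10.5 CPM per kilobase. The last 3 of the 12 most abundant, clec-62 (38.3 ± 2.32), clec-85 (36.7 ± 7.69) and clec-41 (36.02 ± 8.63), did not differ beyond their spread. The infection-list genes clec-60 and clec-61 were among the untested, at 0.0791 and 0.0191 CPM per kilobase.

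**Figure D2:**
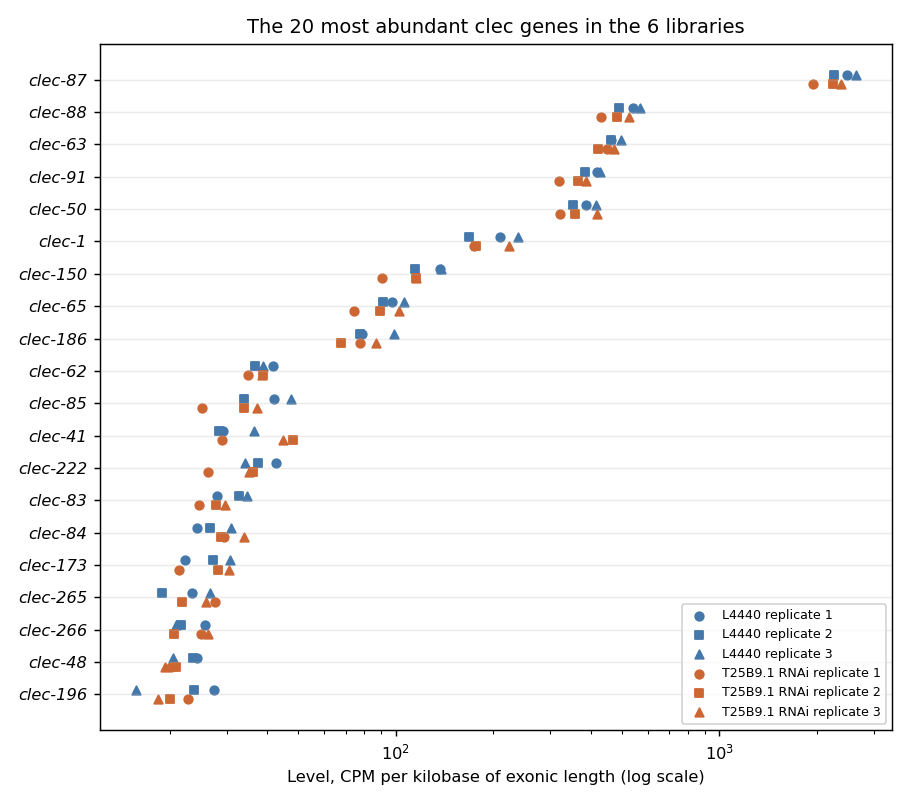
Level of the 20 most abundant clec genes (y axis) in CPM per kilobase of exonic length on a log axis (x axis), with 1 point per library, L4440 in blue and T25B9.1 RNAi in orange. The gene clec-87 lies between 1942 and 2651 in the 6 libraries, above every other member, and the L4440 and RNAi points of each gene lie close together.

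As a share of counts the family was small and was carried by few genes. It held 0.567%, 0.511% and 0.617% of all counts in L4440 replicates 1, 2 and 3 and 0.486%, 0.516% and 0.58% in RNAi replicates 1, 2 and 3. The groups overlapped, with the lowest share in RNAi replicate 1 and the highest in L4440 replicate 3. Of the family's counts 39.1% to 41.8% came from clec-87 in each library, and 75% to 76.9% from clec-87, clec-88, clec-63, clec-50 and clec-91 together. Summed over all members the L4440 libraries were at 5697 ± 409 CPM and the RNAi libraries at 5231 ± 461 CPM (SD, n = 3). Without these 5 genes it was 1320 ± 99.9 and 1281 ± 105 CPM, a difference smaller than the SD within either group.

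No clec gene passed the threshold between T25B9.1 RNAi and L4440. edgeR's quasi-likelihood test on all 13374 genes called 0 of the 88 tested members and 0 genes in all (0%) at an adjusted p under 0.05, with 0.717 the smallest adjusted p of a member. DESeq2 called 0 of 93 members with an adjusted p, against 0.104% of genes. At an unadjusted p under 0.05 edgeR gave 9 members (10.2%), 6 higher and 3 lower with RNAi, where all genes gave 6.18%, 4.01% higher and 2.17% lower. DESeq2 gave 12 of 209 members such a p (5.74%, against 3.38% of genes). With libraries of consecutive label numbers as a block, edgeR gave 9 members higher (10.2%) and 6 lower (6.82%), where all genes in that fit gave 6.89% and 4.01%, and 0 members had an adjusted p under 0.05. Without T25B9.1 RNAi replicate 1, 3 of 96 tested members were higher (3.12%) and 2 lower (2.08%), where all 13575 genes gave 1.57% and 0.737%, again with 0 members called.

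Fold changes of the tested members lay around 0. The median log2 fold change (RNAi against L4440) was -0.049, against 0.0024 over all genes tested, and 81 of the 88 (92%) lay within 0.5 of 0 in either direction, as did 92.5% of all genes. Of the 88, 53 (60.2%) were below 0, against 49.4% of all genes. This share varied with level. Of the 32 members with a mean of at least 10 CPM, 24 (75%) were below 0 with a median of -0.13, beside 63.7% and a median of -0.037 for all 7179 genes at that level. Of the 56 members under 10 CPM, 29 (51.8%) were below 0 with a median of -0.011, beside 32.9% and 0.11 for all genes under 10 CPM.

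How large a change could have been missed depended on the level. For 31 of the 32 members of at least 10 CPM the 95% interval of the log2 fold change, not adjusted for the number of genes, lay within 1 of 0 in both directions, which means less than a 2-fold change. The exception was clec-78, whose interval ran from -0.0044 to 1.23. For 23 of the 32 the interval lay within 0.5 of 0. The median SE was 0.112 for these genes and 0.238 for the 56 under 10 CPM, of which 40 had an interval within 1 of 0.

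**Figure D3:**
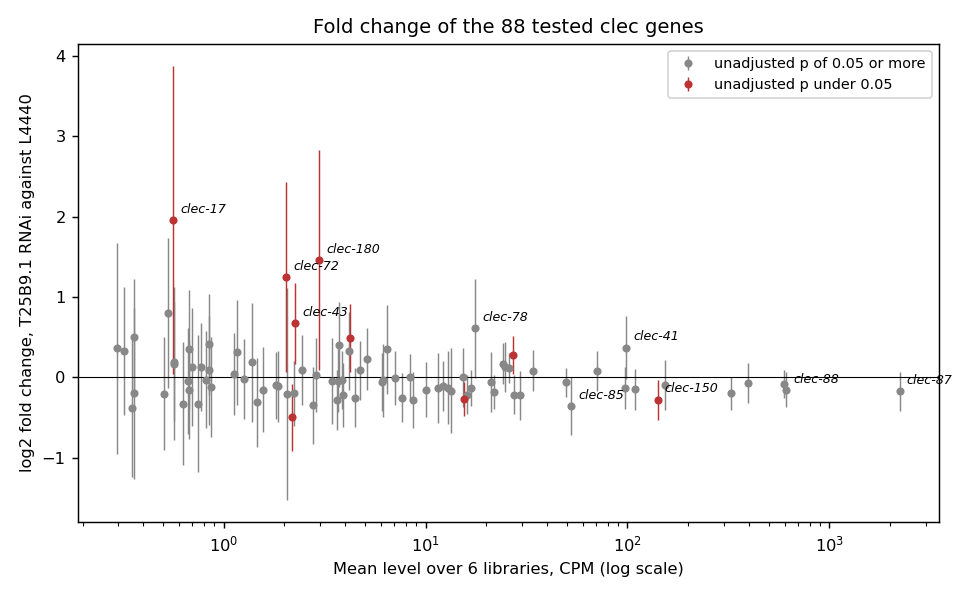
log2 fold change (y axis, T25B9.1 RNAi against L4440) of the 88 tested clec genes against their mean level in CPM on a log axis (x axis), with 95% intervals from edgeR's quasi-likelihood fit as bars. Genes with an unadjusted p under 0.05 are red, and the widest intervals belong to genes of low level such as clec-17.

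The abundant genes illustrate the small differences. The level of clec-87 was 2374, 2170 and 2545 CPM with L4440 and 1865, 2152 and 2277 CPM with RNAi, a log2 fold change of -0.17 (SE 0.106, interval -0.41 to 0.069). For clec-88 it was 654, 594 and 691 CPM against 522, 583 and 637 CPM, with a log2 fold change of -0.15 (SE 0.0963). For clec-91 the libraries were at 357, 327 and 364 CPM with L4440 and at 272, 312 and 330 CPM with RNAi, a log2 fold change of -0.20 (SE 0.0889). In all 3 genes the groups overlapped and RNAi replicate 1 was the lowest library. Without it the log2 fold changes were -0.097, -0.086 and -0.13. The genes clec-63 (-0.078, SE 0.0767) and clec-50 (-0.072, SE 0.108) were nearer to 0, and clec-50 was at 0.011 without RNAi replicate 1. Of the 12 most abundant members only clec-41 had a log2 fold change above 0.

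Of the lower members, clec-56 (chromosome V, 14474399 to 14476794) had the smallest unadjusted p. It was at 17.8, 15.9 and 17.2 CPM with L4440 and at 13.2, 14.3 and 14.7 CPM with RNAi, so that every RNAi library lay below every L4440 library. Its log2 fold change was -0.27 (SE 0.0955, unadjusted p = 0.02 and adjusted p = 0.717 in edgeR). The neighbours of clec-56 within its run of 5 had log2 fold changes of -0.25 to 0.17, among them clec-57, at 8.38 CPM, with 0.0086. Also without overlap was clec-145 (chromosome II, 13588776 to 13590561), at 2.81, 2.398 and 2.42 CPM with L4440 and 1.96, 1.89 and 1.59 CPM with RNAi, a log2 fold change of -0.49 (SE 0.184, unadjusted p = 0.025 in edgeR). Of the exonic bases of clec-145, 16.7% are shared with Y48E1B.8, whose own mean was 10.4 CPM. The levels of clec-150 (chromosome III, 1002707 to 1006298) were 163, 137 and 164 CPM with L4440 and 108, 137 and 137 CPM with RNAi. The groups overlapped in that gene, since L4440 replicate 2 lay among the RNAi libraries, and the log2 fold change of -0.28 (SE 0.11, unadjusted p = 0.0338 in edgeR) was -0.17 without RNAi replicate 1.

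Members also below 0, with an unadjusted p between 0.05 and 0.1 in edgeR, included clec-85, clec-83, clec-49 and clec-48. The PMK-1 target clec-85 was at 60.3, 48.7 and 68.3 CPM with L4440 and at 36.2, 48.6 and 53.5 CPM with RNAi (log2 fold change -0.36, SE 0.158, unadjusted p = 0.0514 in edgeR). RNAi replicate 1 was again the lowest, and the log2 fold change was -0.21 without it. Of its exonic bases 27.7% are shared with Y54G2A.40, itself at 0.66 CPM. In the same run on chromosome IV, clec-83 was at 29.4 ± 3.12 and 25.3 ± 2.30 CPM, while clec-84 between them had a log2 fold change of 0.17. On chromosome V clec-49, studied with Serratia, was at 18.9, 16.4 and 16.3 CPM and 13.5, 14.99 and 16.02 CPM, without overlap (log2 fold change -0.21, SE 0.108, unadjusted p = 0.0805 in edgeR). The values of clec-48 were 23.2 ± 2.08 in the L4440 and 20.5 ± 0.763 CPM in the RNAi libraries (SD, n = 3), which overlapped.

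Among the higher members, 3 had groups that did not overlap and an unadjusted p under 0.05. The gene clec-43 (chromosome II, 944066 to 946157) was at 2.24, 1.65 and 1.35 CPM with L4440 and at 3.12, 2.52 and 2.72 CPM with RNAi. Its log2 fold change of 0.67 (SE 0.224, unadjusted p = 0.0148 and adjusted p = 0.717 in edgeR) had the smallest edgeR p of the 88 tested members. For clec-218 (chromosome V, 8307942 to 8310766) the libraries were at 23.7, 23.9 and 25.97 CPM and 27.1, 27.9 and 34.04 CPM, a log2 fold change of 0.28 (SE 0.103, unadjusted p = 0.0249 in edgeR). Without RNAi replicate 3, the highest library, it was 0.17 and the unadjusted p was not under 0.05. The third, clec-258 (chromosome V, 19788440 to 19789385), was at 3.57, 2.82 and 4.21 CPM and 5.56, 4.51 and 4.79 CPM, a log2 fold change of 0.49 (SE 0.187, unadjusted p = 0.029 in edgeR). Without RNAi replicate 1, its highest library, the log2 fold change was 0.397 and the unadjusted p was not under 0.05. Groups did not overlap in 8 of the 88 tested members, 4 higher and 4 lower (9.09%, against 10.9% of all genes, with 5.53% higher and 5.32% lower). The other 2, named because they complete the count, were clec-118 at 0.297 ± 0.0466 and 0.421 ± 0.0406 CPM and clec-166 at 8.27 ± 0.4 and 6.93 ± 0.799 CPM.

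The gene clec-41 (chromosome V, 13134903 to 13138101), studied in infection with Bacillus thuringiensis, behaved differently in the 3 RNAi libraries. It was at 79.6, 77.3 and 99.6 CPM with L4440 and at 79.3, 131 and 121.9 CPM with RNAi, where replicate 1 stayed at the level of the controls. The log2 fold change was 0.37 (SE 0.176, unadjusted p = 0.0633 in edgeR) with all libraries. Without RNAi replicate 1 it was 0.56, with an unadjusted p = 0.000982 and an adjusted p = 0.95 in edgeR, and without RNAi replicate 2 it was 0.22. Its partner in those infection studies, clec-42, lies elsewhere on the chromosome and did not pass the filter for edgeR. DESeq2, run without that filter, gave clec-42 a log2 fold change of 2.38 (SE 0.838, unadjusted p = 0.00447, adjusted p = 0.539), its smallest p of a member. The level of clec-42 was 0.217, 0.130 and 0.104 CPM with L4440 and 1.77, 0.454 and 0.169 CPM with RNAi. Here replicate 1 was the highest library, the reverse of clec-41, and RNAi replicate 3 lay within the controls.

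**Figure D4:**
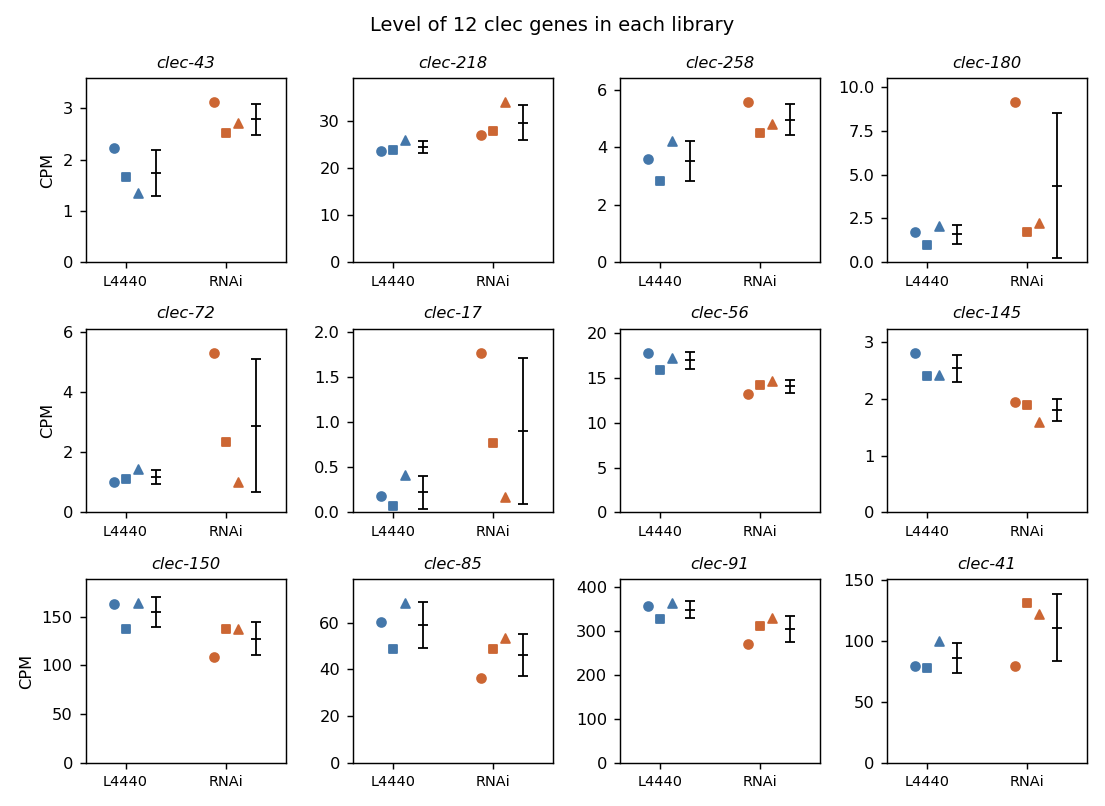
Level in CPM (y axis, from 0, with its own scale per panel) of 12 clec genes in each library, L4440 in blue and T25B9.1 RNAi in orange, with circle, square and triangle for replicates 1, 2 and 3. Black bars give the mean and SD of 3 libraries, and in clec-180, clec-72 and clec-17 RNAi replicate 1 (orange circle) lies at least 2-fold above every other library.

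The largest fold changes of the tested members were smaller without T25B9.1 RNAi replicate 1. The gene clec-180 (chromosome IV, 7568893 to 7573766) was at 1.70, 0.972 and 2.04 CPM with L4440 and at 9.14, 1.71 and 2.24 CPM with RNAi. Its log2 fold change of 1.46 (SE 0.605, unadjusted p = 0.0393 in edgeR) was 0.35 without RNAi replicate 1. Likewise clec-72 (chromosome IV, 3944816 to 3947362) was at 1.01, 1.10 and 1.45 CPM and 5.30, 2.34 and 1.01 CPM, a log2 fold change of 1.25 (SE 0.52, unadjusted p = 0.0398 in edgeR) with that library and 0.46 without it. The infection-list gene clec-17 (chromosome I, 12430028 to 12431500) had counts of only 5, 2 and 12 with L4440 and 47, 22 and 7 with RNAi. The log2 fold change of clec-17 was 1.96 (SE 0.847, unadjusted p = 0.0466 in edgeR), and 0.99 without RNAi replicate 1. In clec-72 and clec-17 RNAi replicate 2 also lay above every L4440 library, and RNAi replicate 3 lay within their range. The long gene clec-78 (10850 exonic bases; chromosome IV, 3989102 to 4014235) was at 15.1, 15.3 and 11.3 CPM and 30.8, 12.9 and 20.1 CPM, and its log2 fold change of 0.61 was 0.25 without that library. In all 4 genes the groups overlapped.

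In total 4 of the 88 tested members, clec-180, clec-72, clec-17 and clec-76, were at least 2-fold higher in RNAi replicate 1 than in every other library (4.55%, against 1.65% of all genes tested), and no member was so in any other library. Markers of several tissues were also highest in that library. The 14 tested pharynx markers had a median of 1.07 above the L4440 mean on the log2 scale there, against 0.18 and 0.25 in RNAi replicates 2 and 3, and their summed level was 89.1 to 123 CPM with L4440 and 113 to 258.4 CPM with RNAi. For 14 hypodermis markers the median was 1.36 in replicate 1 against -0.0056 and 0.028, with sums of 256 to 309 and 261 to 445 CPM. For 14 moulting genes it was 0.92 against 0.20 and 0.20 (sums 331 to 415 and 424 to 740 CPM), and for 15 neuron markers 0.74 against 0.0088 and 0.11 (sums 341 to 370 and 332 to 394 CPM). In the L4440 libraries the medians ran from -0.237 to 0.446 for pharynx and from -0.205 to 0.362 for hypodermis. For moulting they ran from -0.0655 to 0.209 and for neurons from -0.111 to 0.12. For 14 body wall muscle markers the median was 0.424 in RNAi replicate 1, against -0.261 and 0.0964, with L4440 libraries at -0.181 to 0.261. None of the listed pharynx, hypodermis, moulting or neuron markers was at 0 in all libraries. Their part in the levels of these clec genes was not tested.

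The abundant clec genes went the other way in the same library. The 32 members of at least 10 CPM had a median of -0.22 in RNAi replicate 1, -0.14 in replicate 2 and 0.053 in replicate 3, against 0.012, -0.093 and 0.097 in the L4440 libraries. RNAi replicates 1 and 2 thus lay below all controls and replicate 3 within them. All genes tested had medians of 0.0078, -0.011 and 0.018 in the RNAi libraries. Other lists were also lowest in RNAi replicate 1. Their medians there were -0.289 for lysozymes, -0.284 for caenopores, -0.28 for antimicrobial peptides, -0.159 for galectins and -0.143 for oocyte markers. For the 56 members under 10 CPM the 3 RNAi medians (-0.016, -0.060 and 0.053) lay within the range of the controls (-0.096 to 0.080). L4440 replicate 3 was the highest library for 28 of the 88 members (31.8%, against 21.8% of all genes), and RNAi replicate 1 for 16 (18.2%, against 28.2%). Of these 16, 14 had a mean under 10 CPM.

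**Figure D5:**
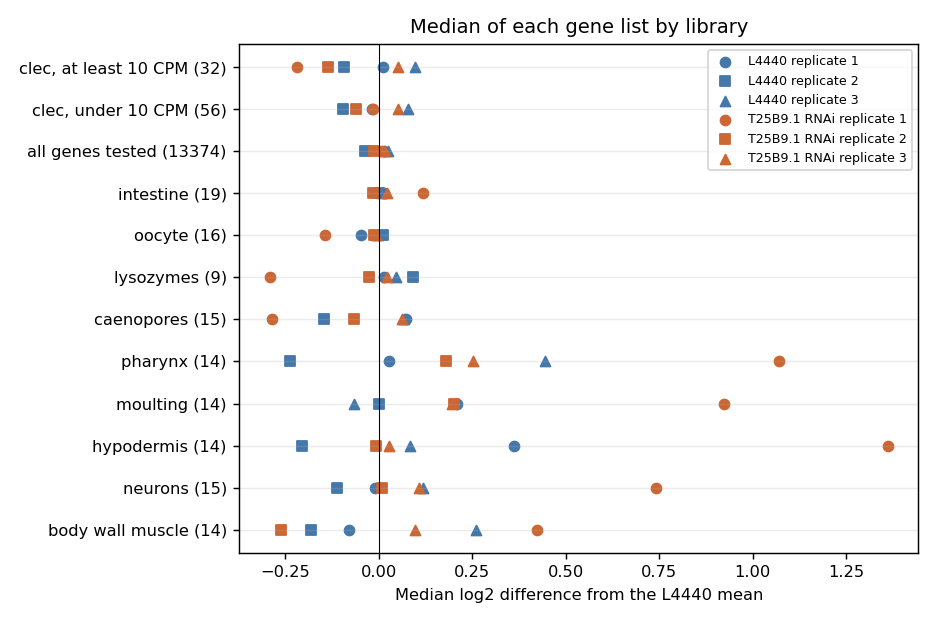
Median log2 difference from the L4440 mean (x axis) of each gene list (y axis, with the number of genes tested) in each library, L4440 in blue and T25B9.1 RNAi in orange. The abundant clec genes, lysozymes and caenopores are lowest in RNAi replicate 1 (orange circle), at -0.22, -0.29 and -0.28, while pharynx, moulting and hypodermis markers are highest there, at 1.07, 0.92 and 1.36.

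Of 20 members known from infection studies, 14 were tested and none was called. Their median log2 fold change was -0.070, and 9 of the 14 lay below 0, where 49.4% of all genes did. With all libraries clec-17 alone had an unadjusted p under 0.05 in edgeR (1 of 14, where all genes gave 6.18%). Without RNAi replicate 1 the p of clec-17 was not under 0.05. Besides clec-17, clec-85, clec-41 and clec-49, those with the smallest p were clec-4, at 3.00, 2.72 and 3.90 CPM with L4440 and 5.38, 3.11 and 4.29 CPM with RNAi, and clec-52, at 3.97, 2.72 and 2.62 CPM and 2.22, 2.38 and 2.70 CPM. Both overlapped between the groups. The log2 fold change of clec-4 was 0.41, and 0.21 without RNAi replicate 1. The 6 untested were clec-39, clec-42, clec-60, clec-61, clec-70 and clec-82, none with a mean above 0.473 CPM.

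The most variable tested members were clec-17, clec-180, clec-72 and clec-3, with SDs of log2 CPM over the 6 libraries of 1.39, 1.06, 0.916 and 0.870, against a median of 0.225 for the tested members and 0.164 for all genes. The median level was 4.03 CPM for the tested members and 13.6 CPM for all genes. Under 10 CPM the median SD was 0.279 for members and for all genes, and from 10 CPM up it was 0.182 and 0.111. In clec-3 (chromosome II, 3017468 to 3019907) the spread did not follow the RNAi. It was at 1.44, 1.004 and 4.28 CPM with L4440 and at 1.13, 1.153 and 3.37 CPM with RNAi, so that replicate 3 of either group was high. These 2 libraries carry consecutive numbers in the labels, 21 and 22. The steadiest of the abundant members was clec-63, with an SD of 0.0769.

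In the lists of other lectins, secreted effectors and regulators of defence edgeR called no gene, and DESeq2 called 1, the lysozyme gene lys-7. Over all genes tested, 49.4% lay below 0. Of 12 galectin genes, a lectin family that binds galactosides without calcium, 12 were tested and 7 were below 0 (median -0.0036), with lec-12 at 47.7 ± 4.20 and 41.2 ± 2.20 CPM (SD, n = 3; unadjusted p = 0.0366 in edgeR). Of 16 lysozyme genes, whose products cut bacterial cell walls, 9 were tested and 6 were below 0 (median -0.11), with lys-7 at 135 ± 21.2 and 231 ± 62.5 CPM (log2 fold change 0.77, adjusted p = 0.717 in edgeR and 0.0296 in DESeq2, without overlap of the groups) and lys-2 at 197 ± 23.1 and 162 ± 21.9 CPM. Of 23 caenopore (spp) genes, which encode pore-forming peptides, 15 were tested and 11 were below 0 (median -0.081), with spp-4 at 30.4 ± 4.14 and 25.1 ± 2.34 CPM (unadjusted p = 0.0389 in edgeR). The caenopore gene spp-13 went the other way, at 0.327 ± 0.22 and 0.786 ± 0.418 CPM. Its log2 fold change was 1.26 (unadjusted p = 0.0412 in edgeR), with overlapping groups and RNAi replicate 1 the highest library. Of 25 antimicrobial peptide genes 16 were tested and 8 were below 0 (median -0.00035), with abf-5 at 1.45 ± 0.12 and 2.88 ± 0.879 CPM. The 1 tested gene of 5 matched thaumatins, thn-2, was at 23.1 ± 2.06 and 21.3 ± 4 CPM. Of 22 regulators of the infection response all were tested and 20 were above 0 with a median of 0.089. Their median log2 difference from the L4440 mean was 0.191 in RNAi replicate 1. In RNAi replicates 2 and 3 it was 0.0278 and 0.0412, within the L4440 libraries (-0.0338 to 0.0564). None of the 22 had an unadjusted p under 0.05, as for hlh-30, a transcription factor of host defence, at 50.7 ± 6.09 and 58.7 ± 9.37 CPM.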

How the data were processed

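The table the authors deposited holds raw counts for 46748 genes in the 6 libraries. Per the submitters' processing notes, the tools were STAR 2.4.1d, featureCounts 1.4.6-p4 and bcl2fastq 1.8.4, with build WBcel235, and per the labels' protocols libraries came from the TruSeq RNA v2 kit. No source used here gives the counting options or annotation release. The authors' second table, named RPKM, was treated as a score, because the factor between its values and the counts, set against that of L4440 replicate 1, ran from 0.576 to 1.74 over genes and libraries, where RPKM would give 1 factor per library.

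Genes were filtered with filterByExpr (13374 kept), scaled by TMM and tested 2-sided with edgeR 4.0.16 (glmQLFit, glmQLFTest; R 4.3.3), with Benjamini-Hochberg adjustment over all genes and a threshold of 0.05. The biological coefficient of variation was 12.8%. SE is the log2 fold change divided by the square root of F, and intervals use edgeR's total degrees of freedom. Symbols came from the identifier table, and exonic length is the union of exons in Ensembl release 115. Library log2 values add a prior count of 2. An exact permutation test of 3 against 3 cannot go below 0.1 and was not used. The fit function was tested on simulated data. DESeq2 1.42.0 and limma 3.58.1 were alternatives.

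Consecutive label numbers (13 and 14, 17 and 18, 21 and 22) deviated together from their group means (correlations 0.216, 0.418 and 0.285). The labels name nothing that they share, so the main fit has no block and the blocked counts stand beside it. Within groups, pairs of libraries had a chi-square of 17.1 to 28.5 per gene, far above sampling noise, and each was kept as its own sample. Between groups, libraries 17 and 18 had 6.59 and libraries 21 and 22 had 10, both below every pair within a group. Libraries 13 and 14 had 47.9, the highest of all pairs. With the block, clec-83, clec-85 and clec-41 were among members that gained an unadjusted p under 0.05 (0.0135, 0.0222 and 0.0279 in edgeR). Under it clec-72 and clec-17 no longer had one.

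Members and lists were chosen with earlier results of these data known. The text names the 12 most abundant members per kilobase, up to 8 tested members per direction with the smallest p, the 4 most variable, up to 6 of the infection list, and up to 3 genes of other lists. The members clec-42, clec-60, clec-61, clec-64, clec-57, clec-84, clec-76, clec-118 and clec-166 were named after their values were seen. The names thn-3, thn-7, thn-8 and opt-2 were not matched. Sequences were not used here.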

Additional observations from a re-analysis of the deposited data

How the results depend on the processing

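No clec member was called under any alternative run except edgeR without the filter on low counts, which called 2, clec-180 (adjusted p = 0.0255) and clec-42 (0.0352), both highest in T25B9.1 RNAi replicate 1. Over all genes the alternatives called 1 with RLE factors, 14 with DESeq2, 139 without the filter, 4 and 47 on the second deposited table with a pseudocount of 1 and 0.1, and from 0 to 1 with 1 library left out. With limma-voom, 3 members were higher and 4 lower at an unadjusted p under 0.05 (3.41% and 4.55%, against 3.23% and 2.08% of genes). Without the filter it was 13 and 8 of 209 (6.22% and 3.83%, against 4.91% and 2.07%). With the replicate block it was 9 and 6 (10.2% and 6.82%, against 6.89% and 4.01%). On the second deposited table with a pseudocount of 1, 1 member was higher (1.28%, against 1.97% of genes). With a pseudocount of 0.1 it was 4 (5.13%, against 3.39%), and with 1 and no minimum 3 (1.44%, against 3.34%). No member was lower in these runs, against 0.195%, 0.281% and 0.141% of genes. With 1 library left out the members higher and lower were 2 to 8 and 1 to 6. Without L4440 replicate 1 it was 2 and 1 (2% and 1%, against 2.25% and 0.701% of genes). Without L4440 replicate 2 it was 2 and 6 (2.06% and 6.19%, against 4.19% and 3.75%). Without L4440 replicate 3 it was 8 and 3 (8.7% and 3.26%, against 4.67% and 1.2%). Without RNAi replicate 1 it was 3 and 2 (3.12% and 2.08%, against 1.57% and 0.737%). Without RNAi replicate 2 it was 7 and 5 (7.14% and 5.1%, against 6.69% and 3.55%). Without RNAi replicate 3 it was 6 and 6 (6.19% each, against 5.32% and 3.58%). Of the 9 members with an unadjusted p under 0.05 in all libraries, clec-43 had one in 5 of the 6 fits that leave out 1 library, clec-56 and clec-145 in 4, clec-150, clec-180, clec-218 and clec-72 in 3, and clec-17 and clec-258 in 2. Leaving out 1 library gave a median log2 fold change of -0.127 (RNAi replicate 3) to 0.021 (L4440 replicate 3). It was 0.00247 with DESeq2 over 209 members, and 0.055 and 0.0598 on the second table with a minimum mean. On that table the sign turned for clec-88 (0.0537), clec-63 (0.144), clec-50 (0.0821), clec-1 (0.175, or 0.176 with a pseudocount of 0.1), clec-62 (0.231 or 0.235), clec-83 (0.0507 or 0.0537) and clec-3 (0.0562 or 0.00893). The factor of that table between value and count, set against that of L4440 replicate 1, differed between genes within a library. In L4440 replicate 2 it ran from 0.576 to 1.58. Whether this turned the signs was not tested. The sign also turned for clec-1 (0.0225) and clec-3 (0.66) without L4440 replicate 3, for clec-50 (0.0111) and clec-3 (0.052) without T25B9.1 RNAi replicate 1, and for clec-3 without RNAi replicate 2 (0.0313). The lowest values with 1 library left out, each without RNAi replicate 3, were -0.222 for clec-1, -0.182 for clec-50 and -0.971 for clec-3. The cause of these changes was not tested either. With the block 0 members and 0 genes in all were called, as in the main fit. Depth limits the 152 untested members, for which only levels can be given.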
